A study of Mus musculus with 18 samples.

Results

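The 32 genes described here encode the glycolytic pathway and the best known transcripts that cells raise when oxygen is scarce. They were taken from the mRNA-seq table of the study by gene symbol. The symbols were chosen with earlier results of these data known, so counts of members below are a description and no independent test. Of 55450 rows in the table, 33 carry a member symbol, because Aldoa stands on 2 rows. The row with nearly all of its signal (ENSMUSG00000030695.16) was used, and the other held 1.02 to 4.46 TPM. By role, 2 members take up glucose, 15 are glycolytic enzymes, 3 steer pyruvate or act at mitochondria, 4 feed back on oxygen sensing or act on chromatin and transcription, 5 are secreted or act on matrix or pH, and 3 are other hypoxia-induced genes.

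P19 is a mouse embryonic carcinoma line, and 18 poly(A) mRNA libraries were made from 3 lines derived from it, with 6 samples each. WT cells are Dicer (+/+). HetKO cells are Dicer (+/-), with 1 allele cut short by a CRISPR frameshift. HM cells are Dicer (HM/-): they carry the same truncated allele and, on the other, the hotspot change E1797G in the RNase IIIb domain. At the Dicer gene, HM and HetKO thus share the truncated allele and differ by the hotspot. The paper also reports a miRNA cluster silenced in the HM line, as a clonal effect, so these lines differ by more than the hotspot. The part of that silencing in the results below was not tested. HM was made by editing HetKO cells, and with 1 line for each genotype, genotype and line cannot be told apart. The labels give no age or treatment and do not say whether samples of a line were separate cultures, so that p-values measure the spread between these samples, which may be technical. HetKO samples were registered apart from those of WT and HM, under titles of another form. The labels do not say whether all were made together, and any such difference cannot be told apart from the HetKO line.

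Glycolysis splits glucose into pyruvate in a chain of enzyme steps and yields ATP without oxygen, with lactate dehydrogenase turning pyruvate into lactate. When oxygen is low, the alpha subunits of the hypoxia-inducible factor (HIF) escape hydroxylation by the Egln prolyl hydroxylases and degradation through Vhl, pair with Arnt and bind short hypoxia response elements in DNA. Glucose transporters, most glycolytic enzymes, Pdk1, Bnip3, Vegfa and the oxygen sensors Egln1 and Egln3 are among the classical targets, and embryonic carcinoma cells, like pluripotent cells, rely heavily on glycolysis.

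The core of a hypoxia response element was searched for as the letters ACGTG or GCGTG on both strands (CACGT or CACGC when read on the other), and matches that share the same C and G were counted once. The windows were RefSeq promoters of GRCm38.p6, from 250 bases before to 50 after each annotated start, 300 bases in all. For 30 of the 32 members a window was found, and Slc2a3 and Ndrg1 had none. Among the 47 windows of the 30 members, 36 (76.6%) held at least 1 match, against 43.8% of all 32851 windows. By gene, 28 of the 30 had a match in at least 1 window, against 46.7% of all genes, and Tpi1 and Gpi1 had none. Windows were not matched for their CG content. The stretches below carry these letters in 8 members that passed the test as lower in HM, against WT or against HetKO, so that the reader can see where the core letters, in capitals, lie in each. All are printed 5′ to 3′ on the strand of the gene.
Slc2a1: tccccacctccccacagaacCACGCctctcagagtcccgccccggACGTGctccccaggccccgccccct
Pdk1: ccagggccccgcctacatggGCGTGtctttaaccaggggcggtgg
Bnip3: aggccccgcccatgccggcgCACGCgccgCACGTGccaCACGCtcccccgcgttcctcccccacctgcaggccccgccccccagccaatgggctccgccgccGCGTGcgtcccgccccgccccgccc
Egln1: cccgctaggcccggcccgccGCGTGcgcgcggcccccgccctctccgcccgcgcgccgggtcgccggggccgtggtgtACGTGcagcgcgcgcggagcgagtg
Adm: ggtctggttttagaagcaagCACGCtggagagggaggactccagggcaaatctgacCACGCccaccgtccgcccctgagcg
P4ha2: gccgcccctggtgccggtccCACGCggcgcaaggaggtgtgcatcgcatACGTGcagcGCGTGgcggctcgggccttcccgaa
Ankrd37: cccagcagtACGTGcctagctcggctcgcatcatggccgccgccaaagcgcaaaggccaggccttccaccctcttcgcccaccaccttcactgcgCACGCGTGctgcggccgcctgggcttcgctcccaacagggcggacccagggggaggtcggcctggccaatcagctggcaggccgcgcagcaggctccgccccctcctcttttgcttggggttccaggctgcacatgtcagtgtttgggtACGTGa
Ddit4: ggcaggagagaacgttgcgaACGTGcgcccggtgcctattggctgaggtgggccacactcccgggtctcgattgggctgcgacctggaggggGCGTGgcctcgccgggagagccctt

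In GRCm38.p6, Slc2a1 is chr4:119108664-119108733 on the plus strand, Pdk1 is chr2:71873126-71873170 on the plus strand and Bnip3 is chr7:138909517-138909643 on the minus strand. Likewise, Egln1 is chr8:124949298-124949400 on the minus strand, Adm is chr7:110627547-110627627 on the plus strand and P4ha2 is chr11:54100797-54100879 on the plus strand. Lastly, Ankrd37 is chr8:45999851-46000100 on the minus strand, and Ddit4 is chr10:59951861-59951977 on the minus strand. Of the members printed above, Ankrd37, Bnip3 and P4ha2 had 4 matches in their windows, and the Bnip3 matches include the palindrome CACGTG. Among members not printed, Pfkp had 4 and Hk1 had 5 in 1 of its windows. Where a gene had several windows, the stretch is from the window with the most matches, and a second Pdk1 window held none. Stretches show only matches before the start, 3 of the 4 for P4ha2. The same letters stood in the promoters of members that did not differ between HM and WT beyond the threshold, of which Ldha and Pgam1 are shown for comparison.
Ldha: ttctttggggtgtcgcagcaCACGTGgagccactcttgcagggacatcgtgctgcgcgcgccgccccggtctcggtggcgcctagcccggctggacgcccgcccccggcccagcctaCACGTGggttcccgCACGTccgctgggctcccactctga
Pgam1: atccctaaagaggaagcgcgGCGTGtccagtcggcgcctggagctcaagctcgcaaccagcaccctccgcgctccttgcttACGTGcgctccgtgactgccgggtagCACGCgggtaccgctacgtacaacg

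The first of these, in GRCm38.p6, is chr7:46845639-46845794 on the plus strand, and the second is chr19:41911676-41911807 on the plus strand. The Ldha window held 5 matches, 3 of them in the stretch printed, and the Pgam1 window held 3. A match of these letters is a description of the window and does not show that a factor binds there.

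Levels are given in TPM, a measure that corrects for transcript length and sums to 1000000 in each sample, so that depth is unknown and a value is a share of the mRNA pool. Each pair of lines was compared in its own limma fit of 12 samples, on log2(TPM + 1), for genes that averaged 1 TPM or more. A gene passed where its p, adjusted by Benjamini-Hochberg over all genes tested, was under 0.05. Fold changes are on this scale, which shrinks those of low genes. Dicer1 itself was at 52.3 ± 2.09 TPM (SD, n = 6) in WT, 48 ± 4.1 in HetKO and 40.3 ± 3.18 in HM, poly(A) mRNA that does not show which allele it came from. The embryonic carcinoma marker Pou5f1 was at 2088 TPM in WT, 2095 in HetKO and 2040.2 in HM, and the 6 such markers summed to 2932 ± 98 TPM in WT, 2826 ± 263 in HetKO and 3161 ± 98.7 in HM (SD, n = 6). Of these 6, Utf1 (0.81), Sox2 (0.66) and Lin28a (0.27) were higher in HM than in WT, beside 19.4% of all genes tested. These 3 and Dppa5a were higher in HM than in HetKO, beside 14.0%. Against WT, HetKO was lower in Dppa5a and Utf1 and higher in Sox2, beside 6.44% lower and 3.71% higher of all genes. The 16 markers of endoderm, mesoderm, neural, fibroblast and blood cells summed to 77.1 to 86.3 TPM in WT, 78.3 to 151 in HetKO and 63.7 to 108 in HM, with Afp and Ptprc near 0. Mitochondrially encoded transcripts took 5.23 to 6.26% of the pool in WT, 5.29 to 5.93% in HetKO and 5.56 to 6.8% in HM. Between HM and WT, 8 of the 16 markers of other cell types were tested. Gata6, Tbx6 and Thy1 were lower and T and Mixl1 higher, beside 32% lower and 19.4% higher of all genes. T averaged 5.83 TPM in WT, 32.6 in HetKO and 24.2 in HM, with HetKO 2 and 5 at 110.5 and 66.2. The part of these in the results below was not tested.

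Some samples of a line were more alike than others. HM 1 with 4, 2 with 3 and 5 with 6 differed by a robust SD of at most 0.105 (log2, 683 genes averaging 200 TPM or more), and all other HM pairings by at least 0.168. In HetKO the close pairs were 1 with 4, 2 with 5 and 3 with 6, at most 0.0696 apart while the rest differed by at least 0.164, and WT paired likewise though less sharply (at most 0.0746, the rest from 0.073). The pairs were read from the data and not from the labels. Every sample was kept as a replicate, and fits on the 3 pair means of each line are given beside the counts. Fits without HM 2 and 3 or without HetKO 2 and 5 leave out pairs picked after their values were seen. Their adjusted p-values are therefore a description.

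Transcripts of glycolysis and of the hypoxia response were lower in HM cells than in WT cells across all the roles. Of the 31 members tested, 24 were lower in HM, among them both glucose transporters, 11 of 15 glycolytic enzymes, Pdk1, Bnip3, Egln1, Ndrg1 and Ddit4, while Hk2 alone was higher. The background was 32% of 14043 genes lower and 19.4% higher. The median log2 fold change of the members was -0.78 and that of all genes tested was -0.09. In 12 members every HM sample lay below every WT sample, against 18% of all genes. Car9, the membrane carbonic anhydrase that is a common hypoxia marker, was not tested, as it was at 0 to 0.63 TPM in all 18 samples. A lower level in a bulk sample can come from fewer cells or less RNA per cell, and these cannot be told apart.

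Few members passed in HetKO cells. Between HetKO and WT, 1 member of 31 (Pfkm) was lower, against 6.44% of 13999 genes, and in the main limma fit none was higher, against 3.71%. At an unadjusted p under 0.05, 4 members were higher in HetKO (Gapdh, Egln3, Adm and P4ha2), against 10.7% of all genes, and an unequal-variance test per gene also gave 0 after adjustment. This depended on the setting. With the replicate block, Higd1a, Egln3, Vegfa, Adm and P4ha2 passed as higher in HetKO, beside 456 of 13999 genes. The count also rose after centring, beside 768 of 13999 genes. The median log2 fold change of the members in the main fit was 0.11, and -0.03 over all genes. Between HM and HetKO, the comparison that holds the truncated allele constant, 26 members were lower in HM, against 20.6% of 13762 genes. None was higher by limma or by the unequal-variance test, nor at an unadjusted p under 0.05, for which the backgrounds were 14.0% and 19.0%. In 17 members every HM sample lay below every HetKO sample, against 9.27% of all genes, and the median log2 fold change was -0.84. The 3 comparisons share samples, so the values for HM against WT and HM against HetKO are not independent.

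**Figure D1:**
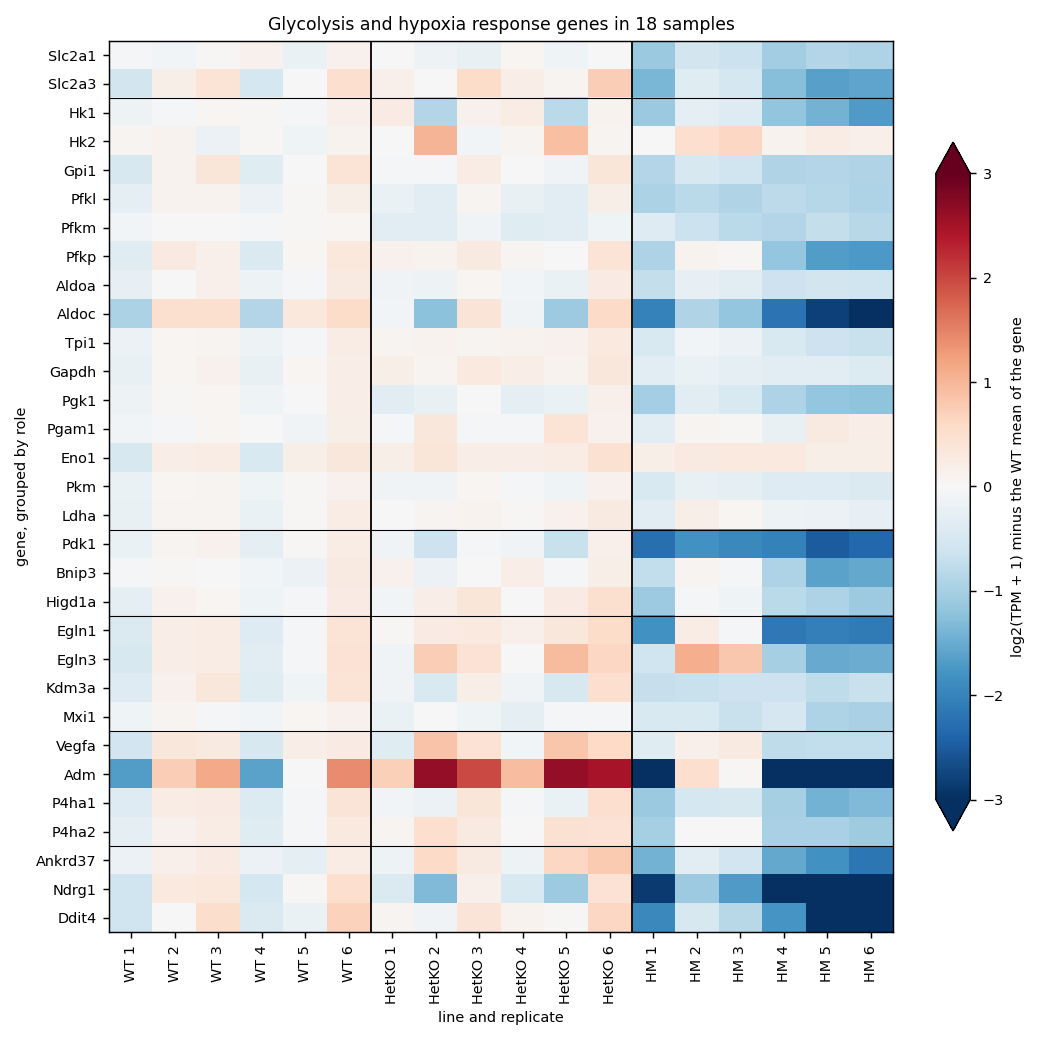
Rows are the 31 members tested, grouped by role, and columns the 18 samples. The color gives log2(TPM + 1) minus the WT mean of that gene, drawn up to 3 in each direction. Blue fills most of the HM columns, more weakly for HM 2 and 3, while HetKO columns are mostly near the WT level, with Adm above it and Hk1, Hk2, Aldoc and Ndrg1 apart in HetKO 2 and 5.

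The counts depended on how the alike pairs were treated. With pair means as replicates, 15 of 31 members passed as lower in HM compared with WT (15.9% of all genes did), and 5 (Slc2a1, Gpi1, Pfkl, Gapdh and Pdk1) were lower in HM than in HetKO, against 1.87%. Centring each sample on its median raised the all-gene median of HM against WT from -0.09 to 0.08 and brought the members' median to -0.60. The share of lower genes among all calls then went from 62.3% to 39% for HM against WT, from 59.6% to 39.1% for HM against HetKO and from 63.5% to 49.3% for HetKO against WT.

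Slc2a1 and Slc2a3 carry glucose across the cell membrane, and both fell in HM. Slc2a1 (GLUT1, the basal transporter of most cells) was at 184 TPM in the lowest, 211 in the median and 231 in the highest WT sample, 180.1, 202 and 219.5 in HetKO, and 97.1, 112 and 143 in HM. All HM samples lay below all others, at a log2 difference of -0.86 (standard error 0.10, adjusted p = 2.45e-05, limma) to WT and -0.79 (adjusted p = 8.7e-05, limma) against HetKO. Slc2a3 (GLUT3, a transporter of high affinity) was the more abundant, with a lowest, median and highest of 507, 788 and 1044 TPM in WT, 743, 833 and 1242 in HetKO, and 238, 295 and 573 in HM. Every HM sample was below every HetKO sample, but HM 2 and 3, at 573 and 517 TPM, were above WT 1 and 4, at 507 and 513. The log2 fold change was -1.13 (standard error 0.26, adjusted p = 0.00276, limma) against WT and -1.41 (adjusted p = 0.000652, limma) against HetKO. With pair means as replicates, Slc2a3 was not called in either comparison. HetKO was at 0.28 against WT with an adjusted p of 0.367.

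Of the 15 glycolytic enzymes, 11 were lower in HM than in WT, with a median log2 fold change of -0.52 over the group, and the same number were lower than in HetKO, also at -0.52. The enzymes together took 1.93 to 2.64% of the mRNA pool in WT, 2.28 to 2.73% in HetKO and 1.65 to 2.06% in HM. The HM range lay below that of HetKO and overlapped WT, where replicates 1 and 4 were at 1.93 and 1.98%. In summed TPM this was 22828 ± 2773 in WT, 24071 ± 1741 in HetKO and 18042 ± 1639 in HM (SD, n = 6).

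**Figure D2:**
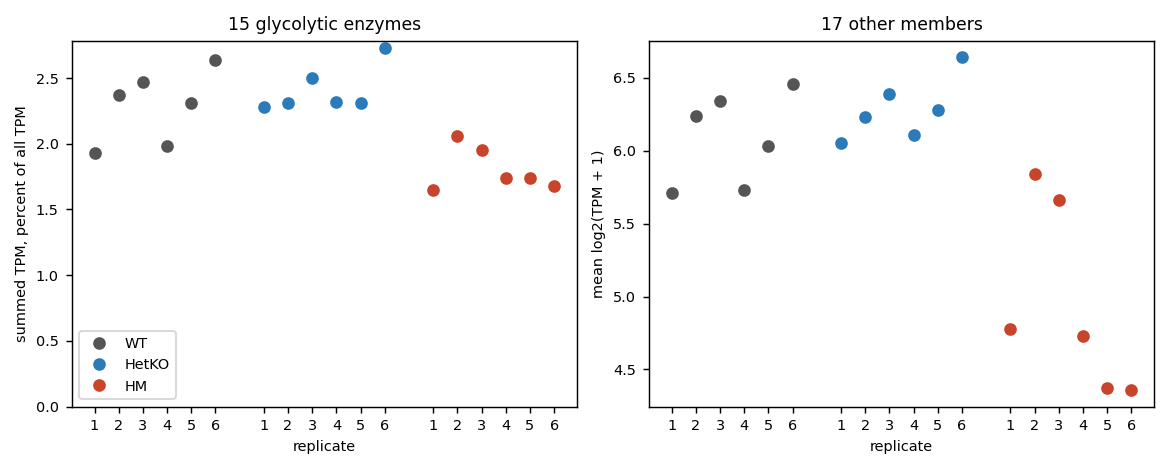
Left, summed TPM of the 15 glycolytic enzymes as a percentage of all TPM in each sample. Right, mean log2(TPM + 1) of the other 17 members. The x axis gives the replicate within each line, and the HM samples reach from 1.65 to 2.06% on the left and from 4.36 to 5.84 on the right, with HM 2 and 3 the highest of the HM samples in both.

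Hexokinases trap glucose as glucose 6-phosphate at the first step. Hk1, the housekeeping form, was at a lowest, median and highest of 23.3, 26 and 29 TPM in WT, 13.6, 28.3 and 31.2 in HetKO, and 7.33, 11.1 and 21.3 in HM. The HM samples were all below WT, at -1.02 (standard error 0.21, adjusted p = 0.00159, limma), but HetKO 2 and 5, at 13.6 and 14.5 TPM, fell within the HM range. Hk2, the inducible form, went the other way. It was at 91.1 to 111 TPM in WT, 97.2 to 209.5 in HetKO and 105 to 159.5 in HM, at a log2 fold change of 0.27 against WT (adjusted p = 0.0373, limma). HetKO 2 and 5 held the highest Hk2 values of all, at 209.5 and 195 TPM, next to their lowest Hk1. The Hk2 call was lost when any 1 of WT 3, 4 or 5 or HM 2, 3 or 5 was left out, with adjusted p up to 0.0833, and Hk2 was at 0.13 without HM 2 and 3. Between HM and HetKO, Hk1 was at -0.86 (adjusted p = 0.034, limma) and Hk2 at -0.06 (adjusted p = 0.849, limma). The Hk1 call was lost when any 1 of HM 1, 4, 5 or 6 or HetKO 1, 3, 4 or 6 was left out, with adjusted p up to 0.0761.

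Phosphofructokinase commits sugar to glycolysis, and its liver, muscle and platelet subunits all fell. Pfkl was at 255, 324 and 347 TPM in the lowest, median and highest WT sample, 243, 264 and 347 in HetKO, and 159, 167 and 177 in HM. No HM sample reached any sample of the other lines, and the HM values had an SD of only 7.41 TPM, at -0.87 (standard error 0.07, adjusted p = 4.91e-06, limma). Pfkm was the member that passed between HetKO and WT. Its lowest, median and highest were 73.3, 78.5 and 81.4 TPM in WT, 60.7, 61.2 and 72 in HetKO, and 41.9, 45.6 and 58.9 in HM. The 3 lines did not overlap, with WT highest and HM lowest. HetKO was at -0.27 against WT (standard error 0.06, adjusted p = 0.0122, limma) and HM at -0.44 against HetKO (adjusted p = 0.00259, limma). With pair means as replicates, Pfkm was no longer called between HetKO and WT.

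Pfkp varied more between HM samples than the other subunits. It was at 94, 138 and 161 TPM in the lowest, median and highest WT sample, 128, 139.8 and 169.6 in HetKO, and 38.3, 62.3 and 138 in HM. HM 2 and 3 were within the WT range and the other HM samples below it. The log2 fold change against WT was -0.89 (standard error 0.31, adjusted p = 0.03, limma), and it was -1.37 (adjusted p = 0.000282, limma) without HM 2 and 3. Leaving out any 1 of WT 2, 3, 5 or 6 or of HM 4, 5 or 6 ended the call, with adjusted p up to 0.0684.

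Aldolase splits the sugar into trioses, and its neural form Aldoc moved most among the glycolytic enzymes of the member list. Aldoc was at 95.5, 243 and 272 TPM in the lowest, median and highest WT sample, 77.9, 173 and 276 in HetKO, and 19.2, 41.8 and 98.4 in HM. HM 2 and 3, at 98.4 and 81.7 TPM, lay near WT 1 and 4, at 95.5 and 100.2 TPM, and near HetKO 2 and 5, at 77.9 and 86.3 TPM. The log2 fold change was -2.05 (standard error 0.41, adjusted p = 0.00123, limma) against WT, 4.14-fold lower, and -1.79 (adjusted p = 0.00662, limma) against HetKO. The abundant form Aldoa was at -0.52 and -0.48, with every HM sample below every HetKO sample.

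Gapdh, which oxidizes glyceraldehyde 3-phosphate, was the most abundant member. It was at 5149.7, 6307 and 6913 TPM in the lowest, median and highest WT sample, 6385, 6918 and 7689 in HetKO, and 4552, 4825 and 5236 in HM. The HM samples were all below HetKO, and only the highest passed the lowest WT sample. The change was small, at -0.32 (standard error 0.08, adjusted p = 0.00346, limma) against WT and -0.52 (adjusted p = 2.26e-05, limma) against HetKO. Pgk1, the first ATP-yielding step and a gene of chromosome X, was at 1939 to 2472 TPM in WT and 927 to 1737 in HM without overlap, at -0.85 (adjusted p = 0.000412, limma). Of the enzymes between the transporters and Gapdh, Gpi1 (glucose 6-phosphate isomerase) was at -0.78 and Tpi1 (triose phosphate isomerase) at -0.41 against WT, and both were below HetKO in every HM sample.

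Pkm, pyruvate kinase, was at 3248, 3842 and 4061 TPM in the lowest, median and highest WT sample, 3372, 3508 and 4068 in HetKO, and 2701, 2830.3 and 3158 in HM. Its HM samples lay below all others, at -0.37 (standard error 0.06, adjusted p = 0.000347, limma) against WT. Ldha, the subunit of lactate dehydrogenase that favors lactate, was at 1994, 2427 and 2726 TPM in WT, 2310.2, 2500.3 and 2822 in HetKO, and 1833, 2091 and 2614 in HM. The lines overlapped throughout, and Ldha passed in no comparison, with -0.11 against WT (95% interval -0.32 to 0.10, adjusted p = 0.355, limma) and -0.22 against HetKO (adjusted p = 0.0566, limma). Without HM 2 and 3 it was at -0.33 against HetKO, with an adjusted p of 0.00292.

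Pgam1 (phosphoglycerate mutase) was at 0.01 (95% interval -0.20 to 0.22) and Eno1 (enolase) at 0.23 (-0.07 to 0.53) against WT, so neither passed. Eno1 was at 1623 to 1770.1 TPM in the 6 HM samples, a narrower range than the 1029 to 1831 TPM of WT, where replicates 1 and 4 were lowest. Its near-identical copy Eno1b (ENSMUSG00000059040.5) was given 773 to 1366 TPM in WT and 1159.6 to 1353 in HM, so the split of reads between the copies is uncertain. The sum of both was 2591 ± 613 TPM in WT, 3084 ± 237 in HetKO and 2959 ± 151 in HM (SD, n = 6), in the same order as Eno1 alone. For Pgam1 and Pgk1 the copies Pgam1-ps2 and Pgk1-rs7 held at most 139 and 25.2 TPM in any sample.

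**Figure D3:**
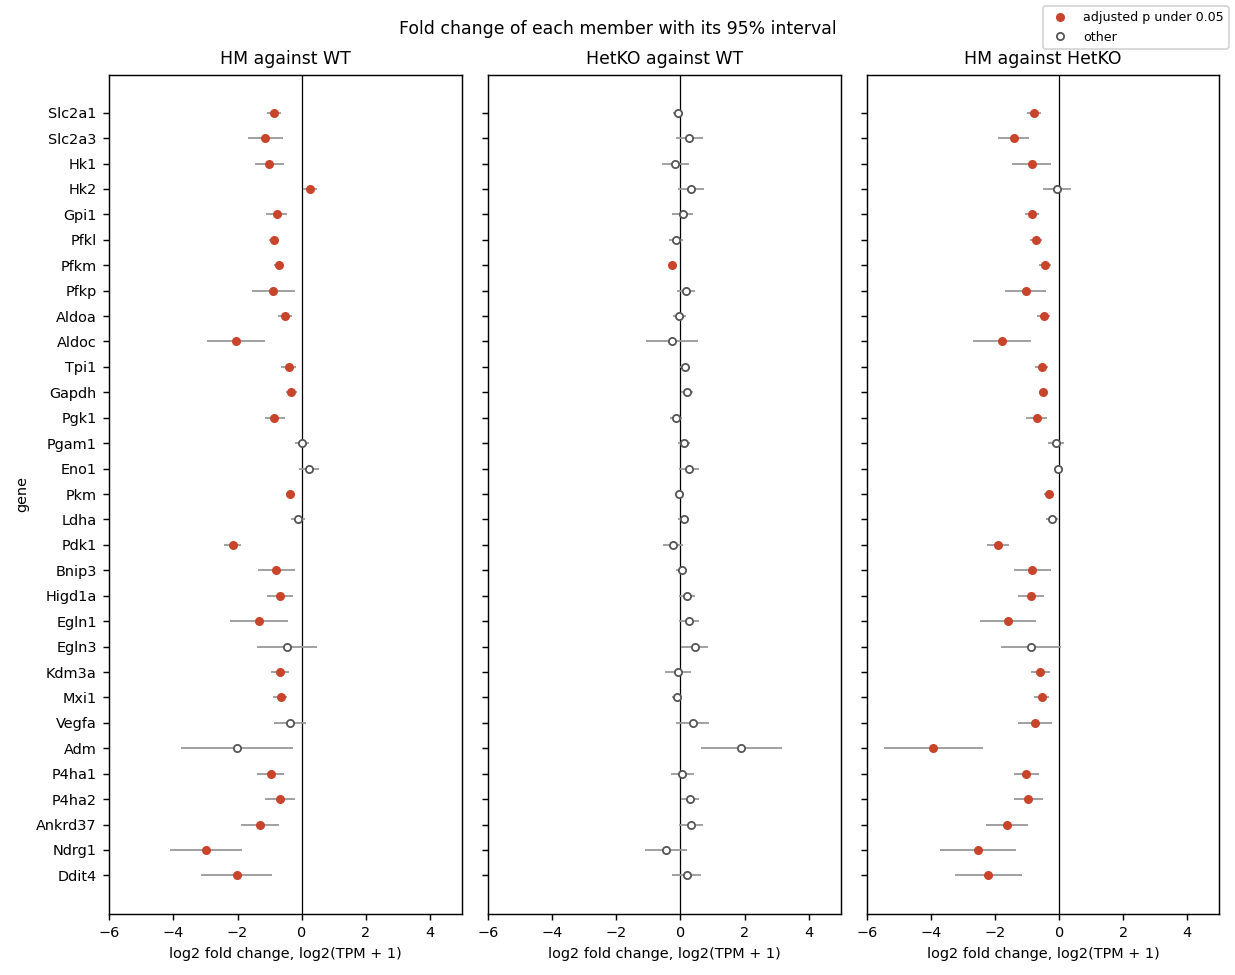
Points are log2 fold changes of each member tested in the 3 comparisons, and lines the 95% intervals from limma. Filled points passed at an adjusted p under 0.05: 25 between HM and WT, of which Hk2 lies to the right of 0, 1 between HetKO and WT (Pfkm) and 26 between HM and HetKO.

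The members that steer pyruvate or act at mitochondria all fell in HM, and Pdk1 had the smallest adjusted p of any member against either line. Pdk1 phosphorylates pyruvate dehydrogenase and so keeps pyruvate out of the citric acid cycle. It was at 95.1, 119 and 134 TPM in the lowest, median and highest WT sample, 72, 106 and 127 in HetKO, and 19.5, 25.3 and 31.6 in HM. The HM samples, HM 2 and 3 among them, were far below every sample of the other lines. The log2 fold change was -2.15 (standard error 0.12, adjusted p = 1.48e-07, limma) against WT, 4.44-fold lower, and -1.92 (adjusted p = 2.86e-06, limma) against HetKO, and it passed in both comparisons with pair means as replicates. HetKO was at -0.23 (adjusted p = 0.306, limma).

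Genes near Pdk1 also lay below 0 on balance. Pdk1 lies on chromosome 2 of GRCm38, from 71873224 to 71903858 on the plus strand, and the 60 other genes tested within 5 Mb on each side had a median log2 fold change of -0.66 between HM and WT. It was -0.74 over 59 genes between HM and HetKO and 0.07 between HetKO and WT. Around the other members, the medians for HM against WT lay between -0.23 (Ndrg1, 12 genes) and 0.03. The part of the neighborhood in the Pdk1 value was not tested.

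Bnip3, which marks mitochondria for autophagy, was at 414 to 569 TPM in WT, 414 to 536 in HetKO and 154 to 496 in HM. HM 2 and 3 lay within the ranges of the other lines. It was at -0.79 against WT (adjusted p = 0.0237, limma), and the call ended without WT 6, HM 5 or HM 6, with adjusted p up to 0.053. Higd1a, a hypoxia-induced protein of the respiratory chain, was at -0.68 (adjusted p = 0.00793, limma) against WT and -0.88 (adjusted p = 0.00391, limma) against HetKO. Its HM 2 and 3 values, 134 and 126 TPM, lay within the WT range of 113 to 166, and with pair means as replicates it was called in neither comparison.

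Of the oxygen sensors and regulators of chromatin and transcription, Egln1, Kdm3a and Mxi1 fell in HM. Egln1 (PHD2), the main prolyl hydroxylase of HIF alpha and itself a HIF target, was at 39.6, 57 and 71.5 TPM in the lowest, median and highest WT sample, 54.5, 64.7 and 79.2 in HetKO, and 11.4, 13.4 and 62.7 in HM. The HM samples stood apart from each other: 1, 4, 5 and 6 were at 11.4 to 14.6 TPM, below every sample of the other lines, while 2 and 3 were at 62.7 and 52.6 TPM, within the WT range. Over all 6 the log2 fold change was -1.32 against WT (standard error 0.42, adjusted p = 0.018, limma), and without HM 2 and 3 it was -2.03 (adjusted p = 1.34e-05, limma). Against HetKO it was -1.59 (adjusted p = 0.0102, limma). Egln1 was not called in either comparison with pair means as replicates.

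Egln3 (PHD3) was also highest in HM 2 and 3 among the HM samples, and it passed in no comparison. It was at 26.2 to 50.2 TPM in WT, 34.3 to 71.5 in HetKO and 12.3 to 79.4 in HM, with HM 2 the highest of all 18 samples. Its log2 fold change against WT was -0.45 (adjusted p = 0.403, limma), and it was -1.15 (adjusted p = 0.00135, limma) without HM 2 and 3. Kdm3a, a histone H3 lysine 9 demethylase, was by contrast even in HM, at 49.1 ± 1.71 TPM (SD, n = 6), below every sample of WT (59.5 to 105) and HetKO (56.2 to 111), at -0.67 (adjusted p = 0.00113, limma) against WT. Mxi1, a Myc antagonist, was at -0.66 (adjusted p = 0.000189, limma) against WT, and its HM samples did not overlap those of either line.

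Among the secreted and matrix members, the collagen prolyl hydroxylases fell in HM against both lines. P4ha1 was at 60.3, 85.8 and 105 TPM in the lowest, median and highest WT sample, 69.8, 76.8 and 114 in HetKO, and 29.6, 38.4 and 57.7 in HM. No HM sample reached WT or HetKO, at -0.97 (standard error 0.19, adjusted p = 0.00108, limma) against WT. P4ha2 was at -0.67 (adjusted p = 0.019, limma) against WT and -0.96 (adjusted p = 0.00411, limma) against HetKO. Vegfa, the angiogenic growth factor, was at 23.8 to 45.6 TPM in WT, 27.7 to 65.5 in HetKO and 20.6 to 43.6 in HM. Vegfa was lower in HM than in HetKO (-0.75, adjusted p = 0.035, limma), but this call was lost when any 1 of HM 1, 4, 5 or 6 or HetKO 2, 3, 5 or 6 was left out, with adjusted p up to 0.0769, and Vegfa was at -0.52 (adjusted p = 0.125) without HetKO 2 and 5. It was at -0.37 against WT (95% interval -0.86 to 0.13, adjusted p = 0.197, limma).

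Adm, which encodes the vasodilator peptide adrenomedullin, ranged from 0.13 to 69.4 TPM over the 18 samples. It was at 2.49, 14 and 29 TPM in the lowest, median and highest WT sample, 17.4, 52.7 and 69.4 in HetKO, and 0.13, 0.315 and 14.9 in HM. HM 2 and 3 were at 14.9 and 10.5 TPM, and the other HM samples were under 1. WT 1 and 4 were the lowest WT samples, at 2.49 and 2.69 TPM, WT 2 and 5 were at 17.7 and 10.2, and WT 3 and 6 at 23.8 and 29. In HetKO, replicates 1 and 4 were at 17.4 and 20.2 TPM, 3 and 6 at 43.5 and 61.8, and 2 and 5 at 69 and 69.4. HM was below HetKO in every sample, at -3.93 (standard error 0.72, adjusted p = 0.0016, limma), 15.2-fold lower. Against WT, HM was at -2.03 (adjusted p = 0.0509, limma) and HetKO at 1.90 (adjusted p = 0.0572, limma), and neither passed. The value against WT lay close to the threshold: HM passed with a pseudocount of 0.1 (-3.15, adjusted p = 0.0322), with a minimum mean of 5 TPM (adjusted p = 0.0465), in the single fit of all 3 lines (0.0285), with the replicate block (0.0153) and when any 1 of WT 1, WT 4, HM 2 or HM 3 was left out. Without HM 2 and 3 together, HM was at -3.18 (adjusted p = 0.0013, limma) against WT. In the remaining settings tried it missed, with an adjusted p of 0.197 with pair means. Among the settings in which the HetKO value against WT passed were the replicate block and the fits without WT 6 or without HetKO 1. That value ranged from 1.56 to 2.18 when 1 sample at a time was left out. The call between HM and HetKO was lost with pair means as replicates.

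**Figure D4:**
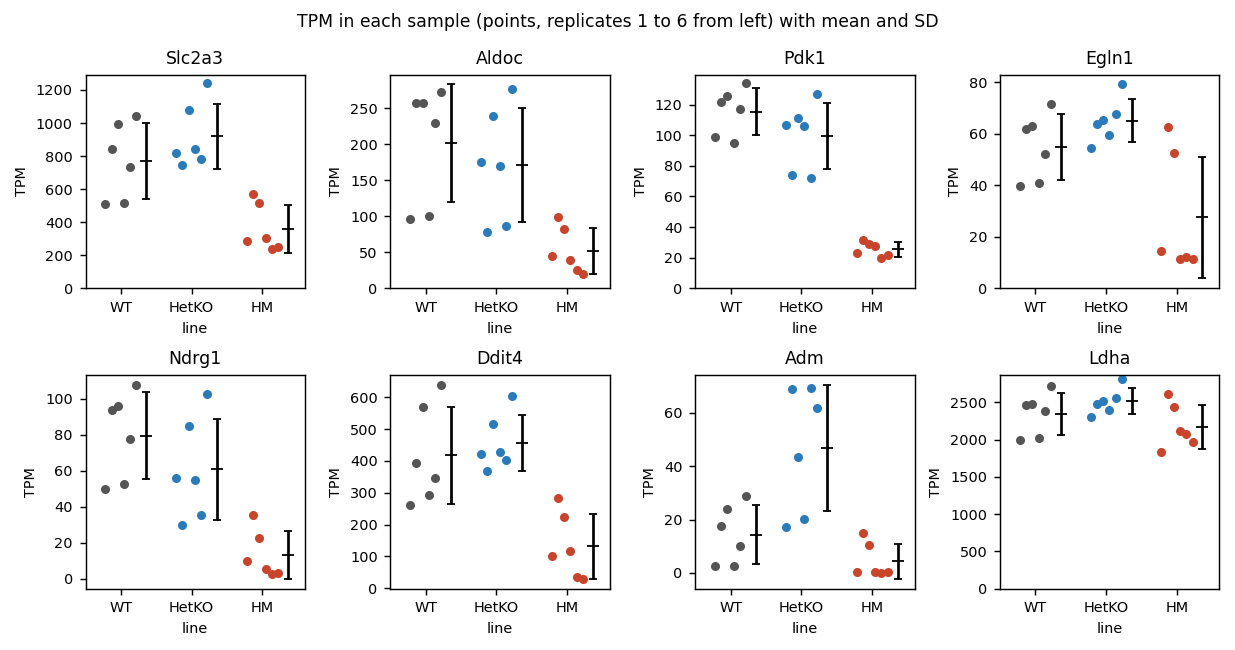
TPM of 8 members in each sample, with replicates 1 to 6 from left to right within a line and the mean and SD beside them. Pdk1 separates HM from both other lines in all samples, Egln1 and Adm show HM 2 and 3 apart from the other 4 HM samples, and Ldha overlaps between all lines.

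The other hypoxia-induced members all fell, and Ndrg1 had the largest change of any member against WT. Ndrg1, a growth arrest and stress gene, was at 49.8, 85.8 and 108 TPM in the lowest, median and highest WT sample, 30.1, 55.6 and 103 in HetKO, and 2.62, 7.43 and 35.5 in HM. All HM samples lay below WT, while HM 2, at 35.5 TPM, passed HetKO 2 and 5, at 30.1 and 35.4 TPM. The log2 fold change was -2.98 (standard error 0.52, adjusted p = 0.000471, limma) against WT, 7.91-fold lower, and -2.53 (adjusted p = 0.00425, limma) against HetKO. Ddit4 (REDD1), an inhibitor of mTORC1 signaling, was at 261, 369 and 639.7 TPM in WT, 367, 424 and 605 in HetKO, and 29.9, 109 and 282 in HM. HM 5 and 6 were lowest, at 34.6 and 29.9 TPM, and HM 2 was above the lowest WT sample. Ddit4 was at -2.03 (standard error 0.51, adjusted p = 0.0051, limma) against WT and -2.21 (adjusted p = 0.00453, limma) against HetKO. Ankrd37, an ankyrin repeat protein, was at 32.5, 39 and 46.7 TPM in WT, 35, 53.5 and 68.6 in HetKO, and 7.91, 13.6 and 31.5 in HM. It did not overlap either line, at -1.30 (standard error 0.28, adjusted p = 0.00176, limma) against WT and -1.63 (adjusted p = 0.00176, limma) against HetKO. With pair means as replicates, Ddit4 was called in neither comparison, while Ndrg1 and Ankrd37 were called against WT and not against HetKO.

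The order of samples within a line was shared by many members. HM 2 and 3 were the highest HM samples in 25 of 31 members, against 21.5% of 13955 genes, and the exceptions were Pfkl, Pfkm, Pgam1, Eno1, Kdm3a and Mxi1. HM 5 and 6 were the lowest in 14 members, among them Ndrg1, Ddit4, Pdk1 and Aldoc, against 21.2%. In WT, replicates 1 and 4 were the lowest in 25 of 31 members, against 32.8% of all genes, and replicates 3 and 6 the highest in 22, against 12.6%. In HetKO, replicates 3 and 6 were the highest in 16 members, against 21.1%, and replicates 1 and 4 the lowest in 12, against 13.1%. HetKO 2 and 5 were the lowest in 14 members, against 35.4%, and the highest in 6 (Hk2, Pgam1, Egln3, Vegfa, Adm and P4ha2), against 23.4%. These pairs were chosen after the values were seen, so the counts are a description.

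The mean log2(TPM + 1) of the 17 members that are not glycolytic enzymes placed HM 2 and 3 at 5.84 and 5.66, close to WT 1 and 4 at 5.71 and 5.73. The other HM samples were at 4.36 to 4.78 and the other WT samples at 6.03 to 6.46, with HetKO at 6.05 to 6.64. Without HM 2 and 3, 27 of 31 members passed as lower in HM compared with WT (33.6% of all genes did), and 28 were lower than in HetKO, against 20.9%. The members called against WT then included Egln3, Vegfa and Adm, and Vegfa was at -0.66 (adjusted p = 0.0149, limma). HM 2 and 3 were picked after the values were seen, and were the highest HM samples in 25 of 31 members. Leaving them out lowers HM in those members by construction, so these fits are a description. WT 1 and 4, the lowest WT samples in 25 of 31 members, were not left out together. Mitochondrial transcripts took 5.88 and 5.72% of the pool in HM 2 and 3, within the 5.56 to 6.8% of the other HM samples. The markers of other cell types summed to 108 and 105 TPM in HM 2 and 3, 91.2 and 102 in HM 1 and 4, and 63.7 and 64.4 in HM 5 and 6. Whether either has a part in the order of the members was not tested.

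Of 16 HIF subunits and regulators, 3 were lower and 4 higher in HM than in WT, beside 32% and 19.4% of all genes tested. Against HetKO, 1 was lower and 4 higher in HM, beside 20.6% and 14.0%. Hif1a, the main oxygen-regulated subunit, was at 55.5 TPM in WT, 58.4 in HetKO and 71.5 in HM, a log2 fold change of 0.35 (adjusted p = 0.00335, limma) between HM and WT. Epas1 (HIF-2 alpha) was low in all lines, at 1.26 to 3.43 TPM in WT, 0.22 to 0.9 in HetKO and 7.62 to 9.46 in HM. These ranges did not overlap, with 1.64 between HM and WT (adjusted p = 1.38e-05, limma), -1.03 between HetKO and WT (adjusted p = 0.00568, limma) and 2.67 between HM and HetKO (adjusted p = 1.29e-08, limma). Their partner Arnt fell from 122 TPM in WT to 72.7 in HM, at -0.77 (adjusted p = 0.00049, limma). HetKO averaged 123 TPM, but HetKO 2 and 5, at 70.4 and 76.7 TPM, lay inside the HM range of 55.3 to 98, and the other HetKO samples were at 142 to 158. Hif3a (-0.91) and Arnt2 (-0.49) were the other subunits lower in HM, and the elongin Eloc (0.23) was higher, as was the coactivator Crebbp (0.18). Vhl was at -0.05, Egln2 at -0.06 and Hif1an, the asparaginyl hydroxylase, at 0.07, and none of these passed. HIF protein was not measured in these libraries.

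Hypoxia-induced genes outside the 32 members were listed as well. Of 36 such genes, 30 were tested between HM and WT, and 18 were lower and 2 higher, beside 32% lower and 19.4% higher of all genes, with a median of -0.56 against -0.09. The largest falls were of Ppp1r3c (-2.23), a regulator of glycogen synthesis, Ero1l (-1.97), an oxidase of the endoplasmic reticulum, and Igfbp3 (-1.50), an insulin-like growth factor binding protein, and Errfi1 (0.90) and Jmjd6 (0.41) were higher. Between HetKO and WT only Igfbp3 passed, at -2.15 (adjusted p = 1.81e-05, limma), beside 6.44% lower and 3.71% higher of all genes. Between HM and HetKO 17 of 31 tested were lower and 3 higher, beside 20.6% and 14.0% of all genes. This list holds genes induced by other stimuli too, and like the members it was chosen with earlier results of these data known.

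**Figure D5:**
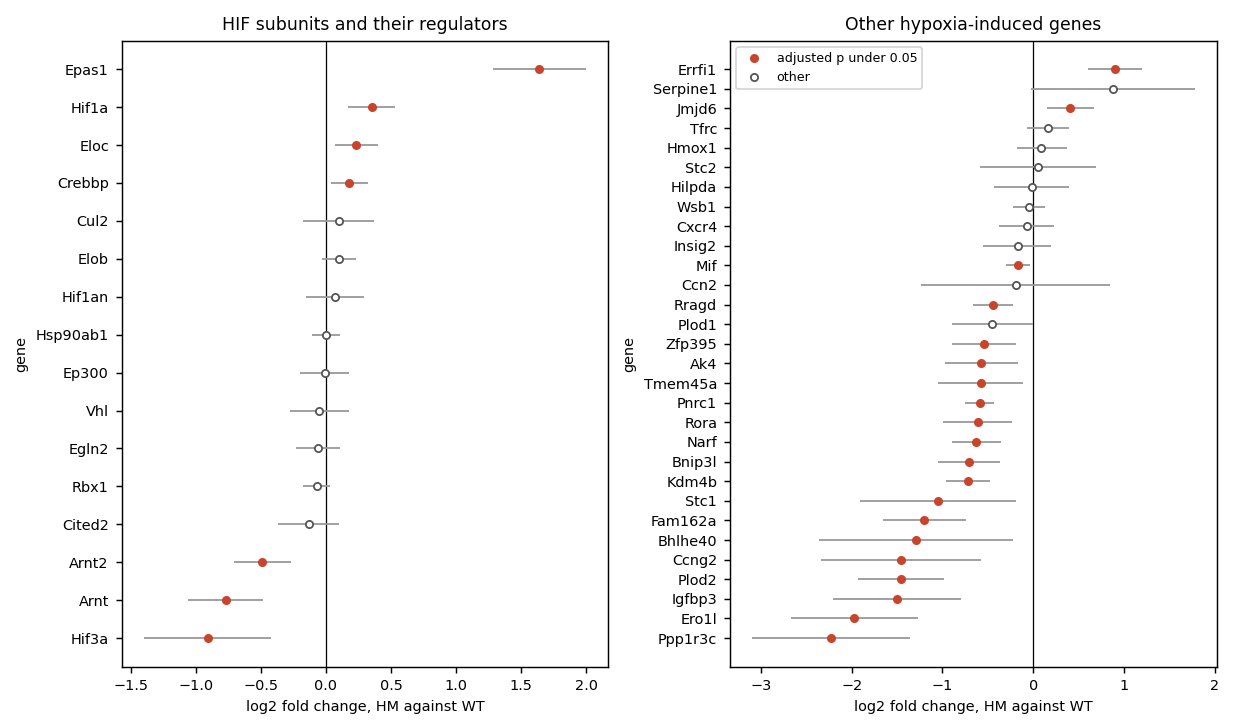
Log2 fold changes between HM and WT with 95% intervals, for HIF subunits and regulators on the left and hypoxia-induced genes outside the members on the right. Filled points passed at an adjusted p under 0.05, 7 of 16 on the left in both directions and 20 of 30 on the right, 18 of them below 0.

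Of 36 other genes of glucose and lactate metabolism, 29 were tested between HM and WT, with 13 lower and 6 higher, beside 32% and 19.4% of all genes. Eno2, the neural enolase, was at -2.81 (adjusted p = 0.0041, limma), the kinase Pdk2 at -1.55 and phosphoglucomutase Pgm1 at -1.47. Among those higher were Pgd of the pentose phosphate pathway at 0.74 (adjusted p = 3.72e-06, limma), the mitochondrial pyruvate carrier subunit Mpc1 at 0.69 and Tigar, which lowers fructose 2,6-bisphosphate, at 0.57. Between HetKO and WT, 2 of the 29 passed, both higher, beside 6.44% lower and 3.71% higher of all genes. They were Slc16a1 (the lactate transporter MCT1, 1.04) and Pgd (0.40). Between HM and HetKO 13 of 28 were lower and 3 higher, beside 20.6% and 14.0% of all genes. The Atf4 pathway, which also raises Ddit4 and Vegfa, had 8 genes tested. Atf4 alone passed between HM and WT, at 0.38 (adjusted p = 0.0212, limma), beside 32% lower and 19.4% higher of all genes. Asns alone passed between HM and HetKO, at -0.44 (adjusted p = 0.0354, limma), beside 20.6% and 14.0%. None passed between HetKO and WT, beside 6.44% and 3.71%.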

How the data were processed

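Poly(A) mRNA of the 18 samples (3 lines, 6 each) was sequenced as stranded paired-end libraries. Read pairs had been merged with BBMerge, and the TPM that RSEM gave for 55450 genes were deposited by the authors in a single table. The submitters' processing notes name cutadapt, STAR and mm10, without their role for each data type. All 55450 versioned identifiers were found in GENCODE M21 (GRCm38), which gave gene positions. TPM totals were about 1000000 per sample, so depth is unknown, no interval for counting error could be set, and no count model was used. RSEM divides reads between near-identical copies by estimation. No per-sample column was left unused.

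Each pair of lines was compared with limma 3.58.1 in R 4.3.3 (lmFit, eBayes with a trend, two-sided) on log2(TPM + 1) for genes averaging 1 TPM or more over the 12 samples, with Benjamini-Hochberg adjustment over all genes tested. The fit was tested on simulated data. Tables were handled in Python 3.11.15 with numpy 2.4.6 and pandas 2.3.3. The members and lists were chosen with earlier results of these data known, so no set test and no p over the list was computed. Values per sample were given for the 12 members with the largest called change between HM and WT, the members called between HetKO and WT, the 3 largest between HM and HetKO, and the 3 most abundant. Of other lists, fixed subunits and the 3 largest called changes in each direction were named, and other members named only for contrast were picked after their values were seen. Promoter sequences came from RefSeq (GRCm38.p6).

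Alternatives were a pseudocount of 0.1, no filter or a mean of at least 5 TPM, median centring, quantile normalization, a single fit of all 3 lines, an unequal-variance test, a replicate block, pair means, a 1.5-fold limit, and leaving out single samples or pairs. The miRNA and immunoprecipitation libraries of the study were not analysed here.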

Additional observations from a re-analysis of the deposited data

Results flagged for a closer look

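Each member was examined in each line for a sample set apart from the other 5, by the gap to its nearest neighbor divided by the range, against Dixon's critical value for 6 samples. Of 96 groups examined 3 passed, where chance would give about 4.8. Tpi1 was at 1875 TPM in HetKO replicate 6, with the other HetKO samples at 1624 to 1688 (ratio 0.744). Car9 was at 0.63 TPM in WT replicate 1 (others 0 to 0.22, ratio 0.651) and at 0.46 TPM in HetKO replicate 6 (others 0 to 0.12, ratio 0.739), all values below the filter. The alike pairs, such as HM 2 and 3, are not single samples and cannot be found in this way.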

How the results depend on the processing

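TPM has no depth, so the precision of a value rests on 6 samples per line, and members near 0 in some samples (Adm in HM, Car9) carry the least signal. Of the 31 log2 fold changes in each comparison, those of members called lower in HM kept their sign in every setting tried. The count of members lower in HM than in WT went from 24 to 15 with pair means, and lay at 22 to 25 when 1 sample at a time was left out. It was 20 after centring, by the unequal-variance test and with the 1.5-fold limit, and 22 without a filter. The count lower in HM than in HetKO went from 26 to 5 with pair means and lay at 23 to 28, and by construction pair means leave 3 values per line. The count higher in HM than in WT (1, Hk2) was 2 after centring and 0 without a filter, after quantile normalization, in the single fit of all 3 lines, by the unequal-variance test, with the replicate block, with pair means, with the 1.5-fold limit, and without HM 2 and 3, and ranged from 0 to 1 over single samples left out. The count lower in HetKO than in WT (1, Pfkm) was 0 with pair means and 0 with the 1.5-fold limit. The count higher in HetKO than in WT (0) was 2 after centring, and 0 to 1 over single samples left out. The cause of these moves was not tested.

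The labels do not say whether replicate numbers pair the samples of different lines. Over all genes, the mean correlation of deviations between samples of equal number was 0.00512 for HM and WT and 0.0206 for HM and HetKO. For HetKO and WT it was 0.0621, with every value above 0 (0.0246 to 0.116). Low correlations over all genes cannot exclude a pairing by number. With the replicate block, 5 members (Higd1a, Egln3, Vegfa, Adm and P4ha2) were higher in HetKO than in WT against 0 without it, beside 456 of 13999 genes. In the same setting 25 were lower in HM than in WT, beside 4322 of 14043 genes, and 25 were lower than in HetKO, beside 2475 of 13762.

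The values that changed sign were all of members not called. After centring these were Ldha at 0.07 between HM and WT, Aldoa and Pkm at 0.02 between HetKO and WT, and Hk2 at 0.06, Pgam1 at 0.01 and Eno1 at 0.07 between HM and HetKO. After quantile normalization they were Pgam1 at -0.07 between HM and WT, and Aldoa at 0.02, Pkm at 0.04 and Bnip3 at -0.03 between HetKO and WT. Without HM 2 and 3, Pgam1 was at -0.02 against WT. Without HetKO 2 and 5, Hk1 was at 0.18, Aldoa at 0.03, Aldoc at 0.19, Pgam1 at -0.01, Pkm at 0.01 and Kdm3a at 0.11 between HetKO and WT, and Hk2 at 0.26 and Pgam1 at 0.02 between HM and HetKO. With 1 sample left out, Pgam1 ranged from -0.05 to 0.07 between HM and WT, Gpi1 from -0.03 to 0.15, Aldoa from -0.09 to 0.02, Kdm3a from -0.20 to 0.0032 and P4ha1 from -0.03 to 0.13 between HetKO and WT, and Hk2 from -0.14 to 0.08 between HM and HetKO.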
